A study of Mus musculus with 16 samples.

Results

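Genes of the *Dach*, *Eya* and Six-family groups in adult neural stem/progenitor cells (NSPCs) were compared between cultures carrying a *Dbx2* transgene and control cultures carrying *GFP*. The 8 genes *Dach1*, *Dach2*, *Eya1*, *Eya2*, *Eya3*, *Eya4*, *Six4* and *Six5* were found by their symbols among 30386 genes of the deposited table, and all 8 passed the filter on low values together with 12533 genes in all. They were chosen by name with results of this comparison known, among them the CPM of *Dach1*, *Dach2* and *Eya4* in the groups, so their differences between the transgenes are given as sizes with standard errors and without p-values.

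The NSPCs came from the subventricular zone of mice of 3 months of age and proliferated as non-adherent neurospheres. *Dbx2*-NSPCs (8 cultures) had been transfected with a plasmid for constitutive expression of mouse *Dbx2*, and *GFP*-NSPCs (8 cultures) with the same vector carrying *GFP*. Both were kept under puromycin, and each transgene was represented by lines from 2 independent derivations, so the 8 cultures of a transgene are repeats of 2 lines rather than 8 animals, and p-values measure the spread between these cultures. The labels number the cultures 1 to 8 within each transgene but do not name the line. Nor do they say that cultures of the same number are pairs, so counts by number are descriptions.

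The *Eya* and *Dach* genes and the Six-family genes are the vertebrate relatives of the fly genes sine oculis, eyes absent and dachshund, which act below Pax6 in building the eye. Six-family proteins are homeodomain factors that bind DNA, Eya proteins lack a DNA-binding domain and serve them as coactivators while also being tyrosine phosphatases, and Dach proteins are nuclear cofactors related to Ski that mostly repress. In vertebrates the network is known from the eye, ear, kidney and muscle, and *Dach1* is also known as a gene of early neural progenitors.

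The values were CPM, the reads of a gene relative to the total of its sample. The samples held 1803928 to 3293285 reads. A floor of 3 reads per library, below which a level could not be separated from 0, equalled 0.911 to 1.66 CPM. The library kit reads near the poly-A end of each transcript, so CPM were not divided by gene length, and levels are compared between samples rather than between genes. *Dbx2* itself ran from 30.67 to 171.22 CPM (median 64.4) in *GFP*-NSPCs and from 114 to 232.13 CPM (median 147) in *Dbx2*-NSPCs, with a log2 difference of 1.26 (standard error 0.317, limma adjusted p = 0.00978). It was higher in the *Dbx2*-NSPC culture of all 8 numbers, although the groups overlapped. The overlap came from *GFP*-NSPC cultures 1 to 4, at 89.31 to 171.22 CPM, while *GFP*-NSPC cultures 5 to 8 were at 30.67 to 39.48 CPM. *Dbx2*-NSPC cultures 1 to 4 were at 135.99 to 232.13 CPM and cultures 5 to 8 at 114 to 155.22 CPM. In cultures numbered 1 to 4 and 5 to 8, which earlier results had shown to lie apart within both transgenes, the *Dbx2* difference was 0.54 and 1.99, and differences of the members are therefore also given within these replicate sets. All 10 NSPC markers examined, among them *Nes*, *Sox2* and *Vim*, were above the filter, and their summed level was 6339 to 8182 CPM in *GFP*-NSPCs and 5262 to 6965 CPM in *Dbx2*-NSPCs. Of 6 microglial and 7 endothelial and mural markers, 4 and 4 did not exceed 3 reads in any culture, and the summed levels of these lists stayed at or below 2.45 and 11.5 CPM.

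*Dach1* (ENSMUSG00000055639; GRCm38 chromosome 14, 97786853 to 98169765, minus strand) was at 11.61 to 29.98 CPM in *GFP*-NSPCs, with a median of 23.2 CPM. In *Dbx2*-NSPCs it was listed at 0 in 7 cultures and at 0.3 CPM, a single read, in replicate 2. The groups did not overlap, and over all libraries of a group 496 reads stood against 1. With 3 reads per library as the floor, *Dach1* was at least 21.8-fold lower in *Dbx2*-NSPCs, at least 29.1-fold lower in replicates 1 to 4 and at least 15.2-fold lower in replicates 5 to 8. On the log2(CPM + 0.5) scale the difference was -5.38 (standard error 0.229), which was the lowest of the 12533 genes tested; its size depends on the pseudocount. Among *GFP*-NSPCs, replicates 1 to 4 had 28.6 ± 1.25 CPM and replicates 5 to 8 had 16.6 ± 3.43 CPM (SD, n = 4 each), without overlap. In bulk cultures, fewer cells with *Dach1* RNA and less *Dach1* RNA per cell cannot be told apart.

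*Dach2*, the only other *Dach* gene of the mouse (ENSMUSG00000025592; chromosome X, 113297510 to 113836386, plus strand), was at 1.11 to 4.89 CPM (median 2.49) in *GFP*-NSPCs and at 2.73 to 13.73 CPM (median 7.46) in *Dbx2*-NSPCs. It was higher in the *Dbx2*-NSPC culture of 7 of the 8 numbers, and a single *Dbx2*-NSPC culture, at 2.73 CPM, lay within the range of *GFP*-NSPCs. The lowest *GFP*-NSPC value, 1.11 CPM in replicate 5, was 2 reads and so under the floor. *GFP*-NSPC replicates 5 to 8 held 19 *Dach2* reads in all. The log2 difference was 1.33 (standard error 0.315), opposite in sign to that of *Dach1*. Within replicates 5 to 8, *GFP*-NSPCs were at 1.76 ± 0.472 CPM and *Dbx2*-NSPCs at 10.3 ± 3.91 CPM (SD, n = 4 each), while within replicates 1 to 4 they were at 4.07 ± 0.937 and 6.07 ± 2.54 CPM. The log2 difference was thus 2.21 (standard error 0.329) in replicates 5 to 8 and 0.45 (standard error 0.356) in replicates 1 to 4. These differences differed from each other by 1.76 (standard error 0.493). Both *Dach* genes together came to 25.5 ± 8.06 CPM in *GFP*-NSPCs, against a sum of 8.23 ± 3.74 CPM in *Dbx2*-NSPCs (SD, n = 8 each). The highest sum among *Dbx2*-NSPCs, 13.7 CPM, lay just above the lowest among *GFP*-NSPCs, 13.3 CPM.

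**Figure D1:**
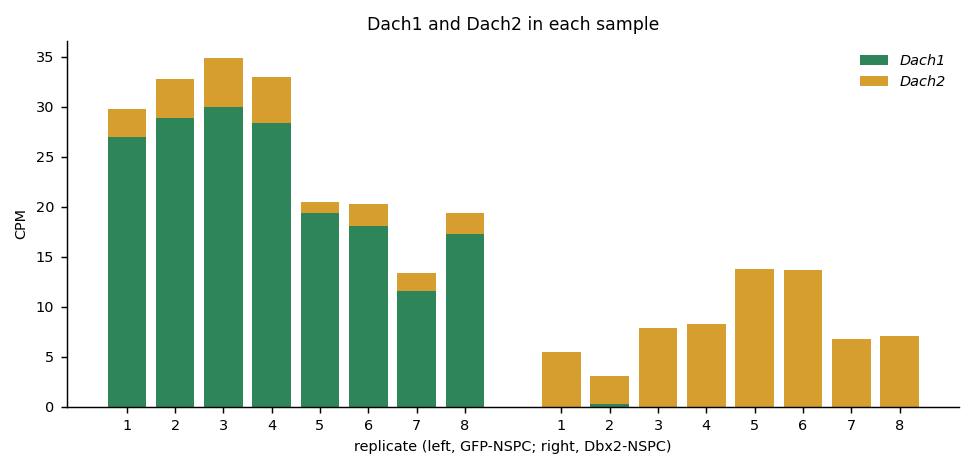
Stacked CPM of *Dach1* (green) and *Dach2* (yellow) in each of the 16 cultures, with *GFP*-NSPC replicates 1 to 8 on the left and *Dbx2*-NSPC replicates 1 to 8 on the right. *Dach1* is the larger share of each *GFP*-NSPC bar, and *Dbx2*-NSPC bars of 3.03 to 13.7 CPM are almost wholly *Dach2*.

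The promoters of the *Dach* genes are shown because these paralogues differed in opposite directions under a homeodomain transgene. The sequences are the 250 bases before the annotated start (RefSeq, GRCm38.p6), 5′ to 3′ on the strand of the gene, and capitals mark TAAT, the core shared by many homeodomain sites, or its reverse complement ATTA.
Dach1 promoter, chr14:98169766-98170015, minus strand: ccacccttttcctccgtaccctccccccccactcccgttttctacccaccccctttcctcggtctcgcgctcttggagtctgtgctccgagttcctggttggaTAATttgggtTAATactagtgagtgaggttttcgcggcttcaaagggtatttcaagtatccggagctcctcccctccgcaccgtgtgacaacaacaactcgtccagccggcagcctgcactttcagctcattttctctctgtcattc
Dach2 promoter, chrX:113297260-113297509, plus strand: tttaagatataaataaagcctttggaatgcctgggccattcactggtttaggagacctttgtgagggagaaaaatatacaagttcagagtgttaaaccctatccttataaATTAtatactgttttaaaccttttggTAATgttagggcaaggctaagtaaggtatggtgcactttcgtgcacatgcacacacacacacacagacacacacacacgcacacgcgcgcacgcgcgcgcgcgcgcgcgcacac
Both windows held 2 copies of TAAT counting both strands. A second annotated start of *Dach2*, with the window chrX:113298006-113298255, had 0 copies. TAAT was present in 54.9% of the 32841 promoter windows of the same length, so the match says nothing particular about either gene. The longer palindrome TAATTA, which contains TAAT, was in none of the 9 windows found for 6 of the 8 genes (*Dach1*, *Dach2*, *Eya3*, *Eya4*, *Six4* and *Six5*) and in 4.84% of all windows. TCAGGTT, the core of the MEF3 site bound by Six-family proteins, was found on either strand in 1 of the 9, before a start of *Six4*, and in 3.49% of all windows. No windows were matched for *Eya1* and *Eya2*.

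*Eya4* (ENSMUSG00000010461; chromosome 10, 23102963 to 23350786), best known for its role in the inner ear and heart, was the other gene whose groups did not overlap. It did not exceed 3 reads in any *GFP*-NSPC culture, where it was at 0 to 0.55 CPM with 5 reads in all, and it was at 0.7 to 3.58 CPM (median 2.62) in *Dbx2*-NSPCs, with 59 reads in all. The lowest *Dbx2*-NSPC value, 0.7 CPM in replicate 5, was 2 reads, and the highest *GFP*-NSPC value, 0.55 CPM, was 1 read. Both were under the floor, so the lack of overlap rests on levels that cannot be separated from 0. *Eya4* was at least 2.19-fold higher in *Dbx2*-NSPCs against the floor, and the log2 difference was 1.98 (standard error 0.302). The highest levels were in *Dbx2*-NSPC replicates 1 to 4, at 2.43 to 3.58 CPM, against 0.7 to 2.8 CPM in replicates 5 to 8. The log2 difference was 2.66 (standard error 0.360) in the former and 1.30 (standard error 0.399) in the latter. The difference between the sets was -1.36 (standard error 0.576), which was not called. *Dach1* and *Eya4* passed the filter on low values through 1 group only and so had to differ.

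*Eya1* (ENSMUSG00000025932; chromosome 1, 14168954 to 14310235), the *Eya* gene mutated in branchio-oto-renal syndrome, was at 12.34 to 25.09 CPM (median 16.4) in *GFP*-NSPCs and at 8.03 to 16.86 CPM (median 12.7) in *Dbx2*-NSPCs. The groups overlapped over much of their range, and *Eya1* was lower in the *Dbx2*-NSPC culture of 7 of the 8 numbers. The log2 difference was -0.59 (standard error 0.208), with -0.70 in replicates 1 to 4 and -0.47 in replicates 5 to 8. *Eya3* (ENSMUSG00000028886; chromosome 4, 132638987 to 132724765), which has been studied as a phosphatase in the DNA damage response, was at 13.03 to 31.03 CPM (median 22.4) and 10.05 to 23.93 CPM (median 18.8). Its log2 difference of -0.24 (standard error 0.210) was close to its error, and it was lower in 4 and higher in 4 of the 8 numbered comparisons.

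*Eya2* (ENSMUSG00000017897; chromosome 2, 165595032 to 165771727) had no single pattern. In *GFP*-NSPCs it was listed at 0 in all 4 cultures numbered 1 to 4 and at 4.6 to 7.85 CPM in those numbered 5 to 8, at least 5.27-fold higher against the floor. In *Dbx2*-NSPCs it was at 0 to 3.26 CPM in replicates 1 to 4 and at 0.93 to 2.26 CPM in replicates 5 to 8, and 5 of these 8 cultures did not exceed 3 reads. Over all cultures the log2 difference was -0.09 (standard error 0.671), and its sign was not stable, with 0.50 at a pseudocount of 0.1 and -0.96 in edgeR. Within replicates 1 to 4 it was 1.40 (standard error 0.554), resting on a single *Dbx2*-NSPC culture above 3 reads, and within replicates 5 to 8 it was -1.59 (standard error 0.338), with no overlap. The difference between the sets was -2.99 (standard error 0.675). Since *GFP*-NSPC replicates 1 to 4 were all at 0, its size depends on the setting, from -1.67 at a pseudocount of 2 to -6.69 in edgeR.

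*Six4* (ENSMUSG00000034460; chromosome 12, 73099609 to 73113456), a homeodomain factor of muscle and sensory precursors, was at 0.55 to 4.93 CPM (median 2.81) in *GFP*-NSPCs and at 1.08 to 9.48 CPM (median 3.83) in *Dbx2*-NSPCs. The 3 highest values, 6.69, 9.45 and 9.48 CPM, were all in *Dbx2*-NSPC replicates 5 to 8. The lowest value of each transgene did not exceed 3 reads, with 1 read in *GFP*-NSPC replicate 5 and 3 reads in *Dbx2*-NSPC replicate 4. The log2 difference was 0.56 (standard error 0.400) over all cultures, -0.27 in replicates 1 to 4 and 1.39 in replicates 5 to 8. The difference between the sets was 1.67 (standard error 0.632), which was not called. *Six5* (ENSMUSG00000040841; chromosome 7, 19094594 to 19098549), which lies beside the myotonic dystrophy kinase gene, was at 3.17 to 11.35 CPM (median 7.13) in *GFP*-NSPCs and at 2.51 to 7.22 CPM (median 4.51) in *Dbx2*-NSPCs. It was lower in the *Dbx2*-NSPC culture of 7 of the 8 numbers, with a log2 difference of -0.67 (standard error 0.253) that was alike in both sets (-0.58 and -0.76).

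**Figure D2:**
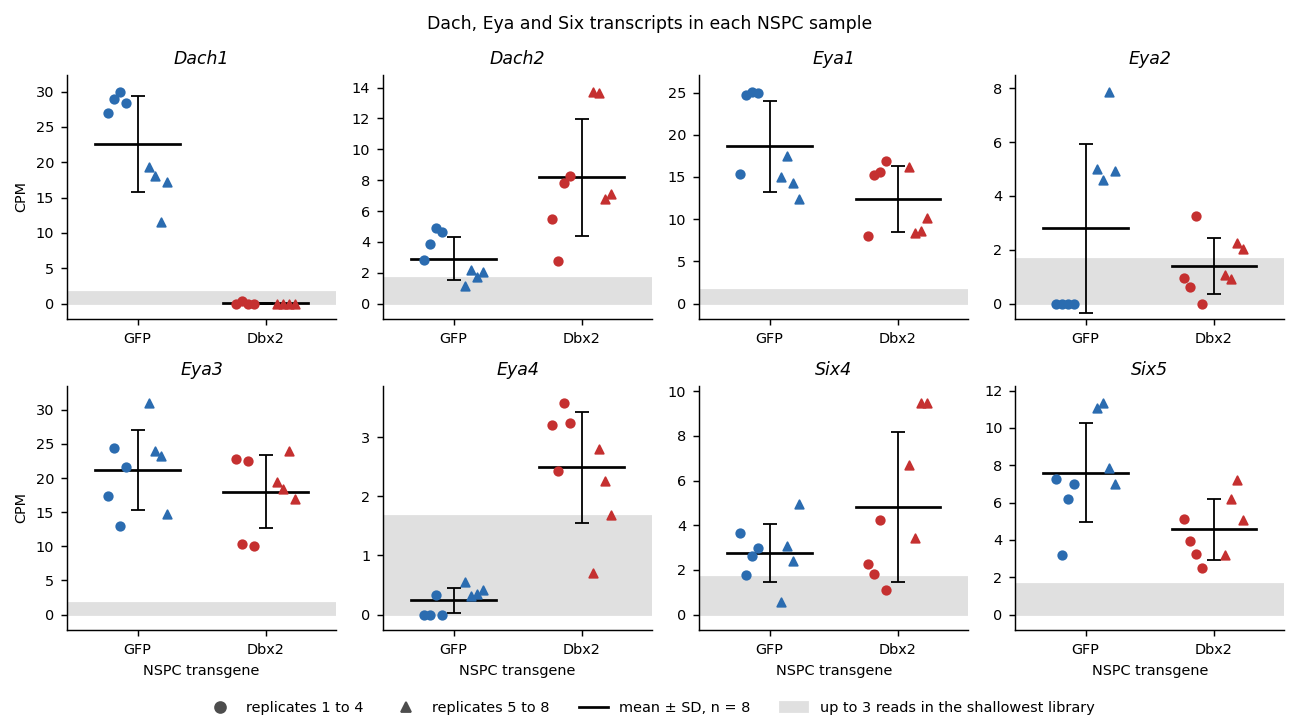
CPM of the 8 genes in each culture (circles, replicates 1 to 4; triangles, replicates 5 to 8; blue, *GFP*-NSPCs; red, *Dbx2*-NSPCs), with the mean and SD of 8 cultures in black and the level of up to 3 reads in the shallowest library in grey. *Dach1* falls into the grey band in every *Dbx2*-NSPC culture. *Eya4* does so in every *GFP*-NSPC culture and in *Dbx2*-NSPC replicate 5, and the 4 *GFP*-NSPC circles of *Eya2* lie at 0.

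Of the 8 genes, 3 passed an adjusted p of 0.05 in limma, *Dach1* lower and *Dach2* and *Eya4* higher, and 5 did not. Over all tested genes 15.8% passed, 8.03% higher and 7.78% lower, and 3.41% had groups without overlap, as *Dach1* and *Eya4* did. For *Eya4* the gap between the groups lay under the floor. Of all tested genes 21.7% passed with the replicate block, 24.2% with the replicate set as covariate, 15.4% in edgeR, and 15.6% and 23.2% in replicates 1 to 4 and 5 to 8 alone. Since the genes were chosen with these results known, nothing is read from the count. For the difference between the replicate sets, 2 of the 8 were called, *Dach2* and *Eya2*, against 9.44% of all tested genes. The genes and the sets were known from these data, so nothing is read from this count either, and no p is given.

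**Figure D3:**
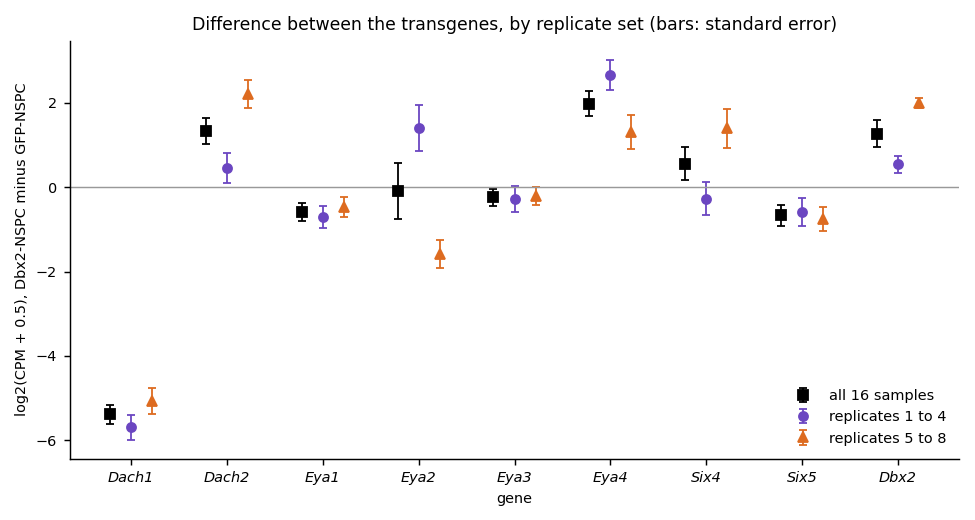
Difference between *Dbx2*-NSPCs and *GFP*-NSPCs in log2(CPM + 0.5) for the 8 genes and *Dbx2*, over all 16 samples (black squares), in replicates 1 to 4 (violet circles) and in replicates 5 to 8 (orange triangles), with standard errors. *Dach1* lies between -5.69 and -5.07 in both sets, while *Eya2* changes sign from 1.40 to -1.59.

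Along the chromosome, the 3 nearest tested genes on each side of *Dach1* were *Diaph3*, *Tdrd3* and *Pcdh9* before it and *Rpl36a-ps1*, *Mzt1* and *Bora* after it. Only the protocadherin gene *Pcdh9* was called among these 6, with 138 ± 56.9 CPM under *GFP* and 78.1 ± 26.3 CPM under *Dbx2* (SD, n = 8 each; log2 difference -0.77, limma adjusted p = 0.0352). The other 5 had log2 differences of -0.53 to 0.09. *Dach1* stood in a sparse region, with *Pcdh9* 3896 kb, *Tdrd3* 10241 kb and *Diaph3* 10646 kb away on one side and *Rpl36a-ps1* 824 kb on the other. Past *Bora*, *Klf12* at 1.70 Mb and *Gm10076* at 7.51 Mb from *Dach1* were also called lower (log2 differences -0.43 and -0.71). They were picked after their values were seen. All other tested genes past *Bora*, up to *Spry2* at 7.72 Mb, were not called, with differences in both directions. No fall of the region is therefore stated. Among the 48 neighbours of all 8 genes, 4 were called higher and 3 lower, against 8.03% and 7.78% of all tested genes. The median log2 difference of the neighbours was -0.06, against -0.02 over all tested genes. None of the 8 genes overlapped another gene with reads in the table.

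The patterns most like that of *Dach1* over the 16 samples, by Pearson's r of log2(CPM + 0.5) among 8939 tested genes whose mean reached 10 CPM under either transgene, belonged to *Pcdh19* (r = 0.986), *Epha5* (0.969), *Tmtc2* (0.968), *Sox21* (0.966) and *Nxph1* (0.963). The samples fall into 2 groups along *Dach1*, so r mostly restates the difference between the transgenes and is given without a p. *Sox21*, a transcription factor of the SoxB group in neural progenitors that also lies on chromosome 14, had a median of 189 CPM under *GFP* and 78.1 CPM under *Dbx2*. *Pcdh19*, a protocadherin, had medians of 47.95 and 9.61 CPM, and *Epha5*, an ephrin receptor, of 73.3 and 7.78 CPM. Within the 8 *GFP*-NSPC cultures alone, r with *Dach1* was 0.762 for *Pcdh19* and 0.806 for *Epha5*. It was 0.052 for *Tmtc2*, 0.184 for *Sox21* and -0.336 for *Nxph1*. *Dach1* itself differed without overlap between the replicate sets of these *GFP*-NSPC cultures. Values of r within *GFP*-NSPCs can therefore restate the difference between the sets, and whether the genes vary together within a set was not tested.

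Other Six-family genes were examined next. *Six3*, a homeodomain repressor of the forebrain and eye, was at 798 to 1019 CPM (median 921) in *GFP*-NSPCs and at 536 to 1038 CPM (median 701) in *Dbx2*-NSPCs. Its log2 difference was -0.34 (standard error 0.117, limma adjusted p = 0.0562; with a replicate block, 0.0264). The difference was -0.52 in replicates 1 to 4 (limma adjusted p = 0.00796) and -0.15 in replicates 5 to 8 (0.311), and the test between the sets gave 0.156. *Six2* was at 3 to 9.12 CPM and 0.72 to 5.46 CPM (log2 difference -0.55, limma adjusted p = 0.287), and *Six6* was listed at 0 in every culture.

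Of the 6 *Pax* genes listed as partners of the network, 2 passed the filter. *Pax6*, whose fly relatives stand at the head of the network, was lower in *Dbx2*-NSPCs, with 25.6 ± 4.52 CPM against 42.9 ± 5.02 CPM (SD, n = 8 each), a log2 difference of -0.74 (standard error 0.119, limma adjusted p = 2.50e-04). The *Pax6* values of the groups, 35.45 to 49.99 and 18.62 to 30.62 CPM, did not overlap, and the difference was -0.76 in replicates 1 to 4 and -0.73 in replicates 5 to 8. *Pax9* was not called over all cultures (log2 difference -0.83, limma adjusted p = 0.185). *Pax9* was at 0 in replicates 1 to 4 of both transgenes and passed the filter only through *GFP*-NSPC replicates 5 to 8. These were at 1.02 to 1.66 CPM, close to the floor of 0.92 to 1.66 CPM in their libraries. *Dbx2*-NSPC replicates 5 to 8 were at 0 to 0.45 CPM (log2 difference -1.67 within this set). *Pax9* had to differ in this set because of the filter, so no p is given for it.

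Of the 15 corepressors, coactivators and binding partners tested, 1 was called, which was lower, against 15.8% of all tested genes called. The median log2 difference of these partners was -0.13. *Sobp*, whose product binds Six-family proteins, was at 66.3 ± 15.1 CPM under *GFP* and 43.03 ± 13.4 CPM under *Dbx2* (SD, n = 8 each; log2 difference -0.64, limma adjusted p = 0.0175). The fall of *Sobp* rested on replicates 5 to 8, where the difference was -1.18 (limma adjusted p = 8.59e-05), against -0.11 in replicates 1 to 4 (0.716), and the test between the sets gave 0.00355. Over all cultures *Ski* and *Tle4* had log2 differences of 0.03 and -0.20 (limma adjusted p = 0.950 and 0.700), and these small values joined opposite differences. *Ski*, the corepressor to which Dach proteins are related, had 0.87 in replicates 1 to 4 and -0.80 in replicates 5 to 8 (limma adjusted p of the difference between the sets 1.13e-06). *Tle4*, a Groucho corepressor, had 0.80 and -1.20 (1.60e-09). For *Aes*, a short Groucho protein, the values were -0.47 and 0.02 (0.00956). The replicate sets were known from these data, so these p-values measure only the spread between cultures within the sets. If a set holds a single line of each transgene, differences between lines and effects of the transgene cannot be told apart.

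None of the 4 tested Eya phosphatase substrates and readers was called in limma, where 15.8% of all tested genes were. *H2afx*, the histone gene whose product Eya proteins dephosphorylate, had a log2 difference of -0.20 (limma adjusted p = 0.512). In the same list *Mdc1*, *Wdr1* and *Myc* had log2 differences of -0.15, 0.10 and -0.22. None of the 4 had an unadjusted p under 0.05, and edgeR and DESeq2 called 0 and 0 of them.

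Of 13 genes listed as reported targets of Dach or Six-family proteins, 9 were tested, of which 1 rose and 2 fell, against 15.8% of all tested genes called. *Ccnd1*, the D-type cyclin, rose from 3378 ± 331 to 4063 ± 170 CPM (log2 difference 0.27, limma adjusted p = 0.0169). *Cdkn1b*, which encodes the cell cycle inhibitor p27, fell from 138 ± 16.6 to 103 ± 19.8 CPM (log2 difference -0.44, limma adjusted p = 0.0103). *Sall1*, a zinc-finger gene of kidney and neural progenitors, fell from 33.1 ± 5.52 to 22.4 ± 4.57 CPM (log2 difference -0.56, limma adjusted p = 0.0105). Within replicates 1 to 4 alone *Ccnd1*, *Cdkn1b* and *Sall1* kept their direction but not their call. *Slc12a2*, a sodium, potassium and chloride cotransporter, was at 32.45 to 139 CPM in *GFP*-NSPCs and 47.52 to 236 CPM in *Dbx2*-NSPCs, with a log2 difference of 0.73 (limma adjusted p = 0.236). With the replicate block *Slc12a2* was called (limma adjusted p = 1.48e-04), as it was in replicates 1 to 4 (0.68, adjusted p = 0.0126) and in replicates 5 to 8 (0.78, adjusted p = 2.62e-04) in limma fits of each set alone. The list mixes targets described in other tissues, and 6 of its tested genes were not called, so no change of the list as a whole is stated. Over all lists, 5 of 31 tested genes were called, 16.1% against 15.8% of all tested genes. With the replicate block 7 of these were called, against 21.7% of all tested genes, and the genes added were *Six3* and *Slc12a2*.

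**Figure D4:**
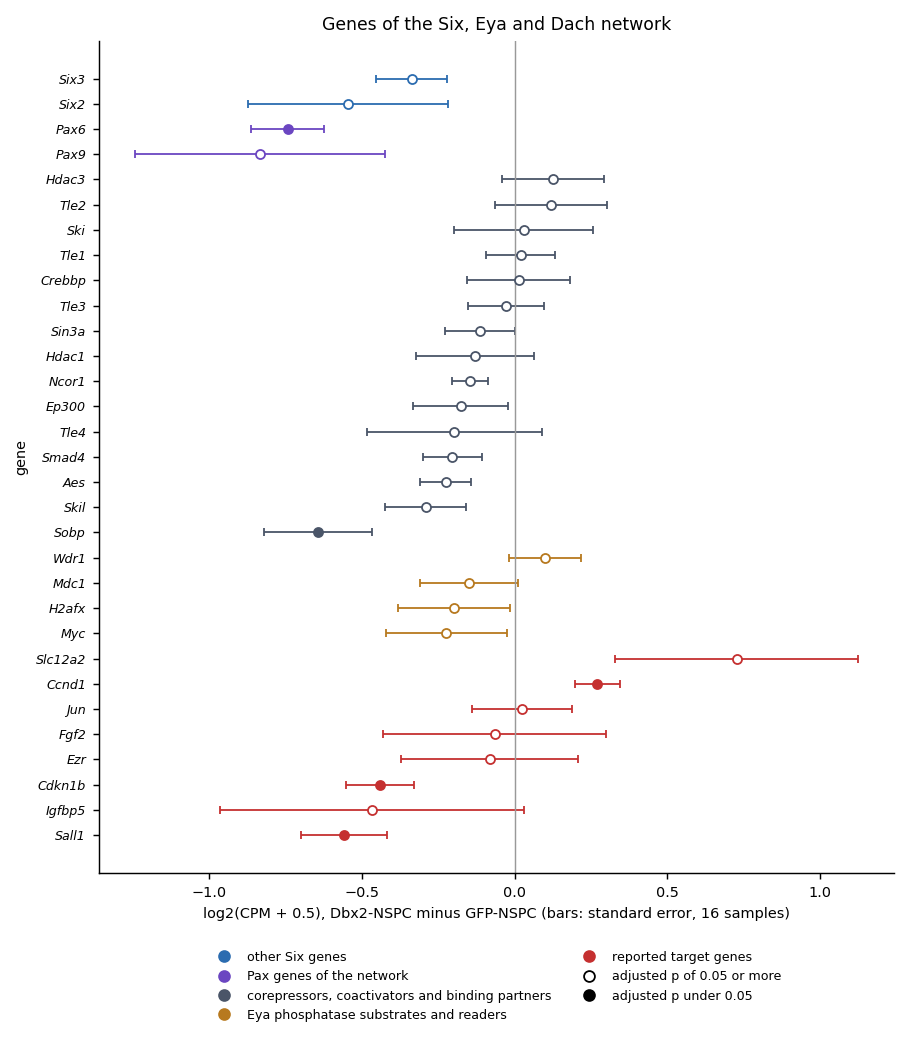
Difference between *Dbx2*-NSPCs and *GFP*-NSPCs in log2(CPM + 0.5), with standard errors over 16 samples, for the 31 tested genes of the lists, coloured by list. Filled points passed an adjusted p of 0.05: *Pax6*, *Sobp*, *Cdkn1b* and *Sall1* to the left of 0, and *Ccnd1* to the right.

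Markers of other cell types were counted beside the 15.8% of all tested genes that were called. Of 5 astrocyte markers, 1 was called higher and 2 lower, and their sum was 243 to 525 CPM in *GFP*-NSPCs and 121 to 260 CPM in *Dbx2*-NSPCs. Of 7 neuronal markers, 6 were tested and 1 was called lower, with sums of 840 to 1294 and 706 to 906 CPM, and *Stmn2* was listed at 0 throughout. Of 3 ependymal markers, 2 were tested and 1 was called higher (sums of 9.56 to 21.4 and 14.4 to 34.7 CPM), and *Tmem212* was listed at 0. Of 9 oligodendrocyte lineage markers, 5 were tested and none was called in limma, with sums of 2455 to 3182 and 2284 to 2959 CPM; *Mog* was at 0 and *Sox10* and *Mag* did not exceed 3 reads. Of the NSPC markers, 3 of 10 were called lower. The part of these differences in the levels of *Dach1* and the other genes was not tested. Of 5 muscle and mesenchyme markers, 2 were tested and none was called in limma, with sums of 0.41 to 5.29 and 0.35 to 7.07 CPM. In this list *Myog* and *Myod1*, which define muscle, where *Eya* and Six-family genes are also used, did not exceed 3 reads in any culture.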

How the data were processed

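Total RNA (100 ng) of 16 cultures had been made into 3′ end libraries. Per the paper's methods and the labels, reads were trimmed (bbduk) and mapped to GRCm38 by STAR 2.5.0a with Ensembl 96 annotation, and the authors deposited CPM, the reads of a gene relative to the sample total,, rounded to 2 decimals; the counting tool and strand are not given in the sources used here. 0 columns were left out. Columns summed to 999485 to 999614, so no scaling beyond the total had been applied. Within 0.006 CPM, 100% of the values above 0 were whole multiples of the CPM of 1 read, and these reads gave the depths; intervals were not computed, and floors cover counting error only.

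Genes above 1 CPM in at least 4 samples entered a fit of log2(CPM + 0.5) by limma 3.58.1 under R 4.3.3 (trend, 2-sided, Benjamini-Hochberg over all tested genes, threshold 0.05). The cell line covariate of the methods could not be used, since labels do not give it. Whether differences differed between replicates 1 to 4 and 5 to 8 was tested as an interaction. Deviations of same-numbered cultures from their group means, over tested genes, correlated at 0.152 to 0.303, so the numbers were treated as pairs in an alternative with a replicate block; within the replicate sets these correlations were -0.007 to 0.119. Members and lists were chosen with earlier results of these data known. Genes named were the members, *Dbx2*, list genes that passed a test, the 3 neighbours on each side of *Dach1* and the 5 genes most correlated with it. List genes named without a call, and *Klf12* and *Gm10076*, were chosen after their values were seen. Positions came from GENCODE M21, the release of Ensembl 96. Of the listed genes, 3 are not reported here. The main limma fit, the edgeR and DESeq2 fits of the transgenes and the limma interaction were tried on simulated data, and the other fits were not. Alternatives were other pseudocounts (0.1 and 2), filters and scaling, no trend, the block, the replicate set as covariate, each set alone, *GFP*-NSPC replicate 1 left out, and tests of the whole reads by DESeq2 1.42.0 and edgeR 4.0.16. Plots used matplotlib 3.10.9.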

Additional observations from a re-analysis of the deposited data

Results flagged for a closer look

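The difference between the transgenes differed between replicates 5 to 8 and replicates 1 to 4 in 2 of the 8 *Dach*, *Eya* and Six-family genes chosen, in *Dbx2* and in 4 of 31 tested list genes, by the limma interaction test adjusted over all tested genes, of which 9.44% were called. The difference of differences was 1.76 for *Dach2*, -2.99 for *Eya2* and 1.45 for *Dbx2* (limma adjusted p = 1.04e-04). No p is given for *Dach2* and *Eya2*, which were chosen with results of these data known. Among the partner genes it was -1.67 for *Ski* (1.13e-06), -2.0 for *Tle4* (1.60e-09), 0.48 for *Aes* (0.00956) and -1.07 for *Sobp* (0.00355). The replicate sets are known from the data and not from the labels, and whether they are the lines of the study was not tested. The p-values given here therefore measure only the spread between cultures within the sets.

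Within groups of 8, 2 values had a wide gap to the other cultures. *Dbx2*-NSPC replicate 1 had 232.13 CPM of *Dbx2*, against 114 to 168.44 CPM in the other *Dbx2*-NSPC cultures. *Dbx2*-NSPC replicate 2 had 0.3 CPM of *Dach1*, where the others had 0; this is 1 read, under the floor of 3 reads, and cannot be separated from 0. Chance flags about 1 in 20 groups, and 28 groups were examined.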

How the results depend on the processing

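*Dach1* was lower, and *Dach2* and *Eya4* higher, in *Dbx2*-NSPCs in every fit that held them. The log2 difference of *Dach1* was -7.51 and -3.54 with pseudocounts of 0.1 and 2, and -8.02 and -8.10 in edgeR and DESeq2; in the same order *Eya4* gave 3.15, 0.97, 3.23 and 3.47. In replicates 1 to 4 and in replicates 5 to 8 alone, *Dach2* gave 0.45 and 2.21 and *Eya4* 2.66 and 1.30, and *Dbx2* gave 0.54 with a limma adjusted p of 0.0891 in replicates 1 to 4. *Dach2* lost its call in replicates 1 to 4 alone and kept it in 13 of 14 fits. *Eya1* passed the threshold in 2 of 14 fits, with the replicate block and with the replicate set as covariate, *Six5* in 1 of 14, with the covariate, and *Eya2* and *Six4* in 1 of 13 each, in replicates 5 to 8 alone. Nothing is read from these calls, since the genes were chosen with results known. *Eya2* gave 0.50 with a pseudocount of 0.1, -0.96 in edgeR and -0.98 in DESeq2, and its interaction gave -4.65, -6.69 and -6.10 in these fits and -1.67 with a pseudocount of 2. *Eya2*, *Eya4* and *Six4* were not in the fit of genes averaging 5 CPM or more.

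With the replicate block 2723 genes (21.7% of those tested) were called, against 1982 (15.8%) without it, and 7 against 5 of the 31 tested list genes. With the replicate set as covariate 3034 genes (24.2% of those tested) and 8 list genes were called. In replicates 5 to 8 alone it was 2911 genes (23.2%) and 11 list genes. The interaction was -0.71 for *Dach1* in edgeR, against 0.62 in limma, and -0.034 and -0.033 for *Eya3* in edgeR and DESeq2, against 0.08; none of these was called. For *Dach2* it lost its call without a filter on low values, and for *Eya4* it gained one in limma without trend. Nothing is read from these calls either. *Ccnd1* lost its call without a filter on low values (limma adjusted p = 0.0990). At 3 reads per library, levels under about 1 CPM could not be told from 0. This limits *Eya2* in both groups, *Eya4* in *GFP*-NSPCs and *Dach1* in *Dbx2*-NSPCs. It also touches *Eya4* in *Dbx2*-NSPC replicate 5 and single cultures of *Dach2* and *Six4*.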
